A study of Arabidopsis thaliana with 6 samples.

Results

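The genes described here are the 4 that encode the motor ATPases of SWI/SNF chromatin remodelling complexes in Arabidopsis thaliana, BRM (AT2G46020), SYD (AT2G28290), CHR12 (AT3G06010) and CHR23 (AT5G19310). They were picked out by locus name, with earlier results of these data known, and all 4 were found among the 38064 genes of the deposited count table. RNA was sequenced from seedlings kept for 5 days in darkness, in 3 libraries of the mutant bdh1-1 bdh2-1 (called bdh below) and 3 of its wild type Col-0 (WT). The mutant carries mutations in both genes for BCL-domain homolog (BDH) proteins, which the series title links to the stability of SWI/SNF complexes, and no other allele or treatment is named for either group. The sample labels give etiolated seedlings as the tissue while the design text speaks of hypocotyls, so which organs contributed is not settled, and the labels do not say how many seedlings, or whether separate sowings, stood behind a replicate. The p-values therefore measure the spread between these libraries, which may be partly technical.

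SWI/SNF complexes use the energy of ATP to slide or evict nucleosomes, and so change which stretches of DNA are open to transcription factors. Each complex is built around a single ATPase. In Arabidopsis, BRM and SYD are large proteins of overlapping but distinct function in development, and CHR12 and CHR23, also called MINU proteins, are smaller paralogs that can stand in for each other. BRM is known for roles in hormone responses, seedling growth and flowering. Overexpression of CHR12 or CHR23 is known to restrain growth of Arabidopsis seedlings.

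The coding sequences show how the 4 genes are related, and whether reads could be told apart. CHR12 and CHR23 were identical at 81.7% of 3189 aligned bases, whereas every other pair was identical at 48.2% to 51.3%. A stretch of 90 bases, the one within single exons with the highest mean identity over pairs of the 4 genes, is shown first because it displays that split. Capitals mark positions at which the 4 genes do not all have the same base, and the other 42 positions are identical. All sequences are the reference sequence, RefSeq TAIR10.1, written 5′ to 3′ on the coding strand.
BRM: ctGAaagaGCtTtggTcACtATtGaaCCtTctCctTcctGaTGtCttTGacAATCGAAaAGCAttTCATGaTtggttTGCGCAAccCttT
SYD: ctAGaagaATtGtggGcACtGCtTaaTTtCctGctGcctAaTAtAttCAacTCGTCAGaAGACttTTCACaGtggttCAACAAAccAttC
CHR12: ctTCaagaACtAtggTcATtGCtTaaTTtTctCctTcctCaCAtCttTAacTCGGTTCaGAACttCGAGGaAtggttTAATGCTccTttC
CHR23: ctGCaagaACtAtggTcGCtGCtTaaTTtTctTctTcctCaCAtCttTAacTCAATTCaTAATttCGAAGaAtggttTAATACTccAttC
These stretches lie at chr2:18928259-18928348 on the plus strand (BRM), chr2:12062777-12062866 on the plus strand (SYD), chr3:1804243-1804332 on the minus strand (CHR12) and chr5:6501603-6501692 on the plus strand (CHR23). The second stretch is the one of 90 bases within single exons in which CHR12 and CHR23 are most alike. There 84 of 90 bases are identical, with the differing bases in capitals. It is shown because it displays how alike the pair can be, and the placing of reads was not tested.
CHR12: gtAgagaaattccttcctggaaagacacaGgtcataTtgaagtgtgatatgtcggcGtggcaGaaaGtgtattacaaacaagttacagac
CHR23: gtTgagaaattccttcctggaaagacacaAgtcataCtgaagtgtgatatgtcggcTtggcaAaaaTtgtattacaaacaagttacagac
It lies at chr3:1803964-1804053 on the minus strand for CHR12 and at chr5:6501891-6501980 on the plus strand for CHR23. The longest run of identical bases shared by the pair was 43 bases, and 20 bases was the longest for any other pair. None of the 4 coding sequences matched another gene over 100 bases or more at 95% identity.

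The gene models also differ in size. Exons covered 7578 bases in BRM, 11171 in SYD, 3849 in CHR12 and 3642 in CHR23. BRM overlaps the neighbouring gene UBC6, on the opposite strand, by 37 bases. The other members overlap no annotated gene.

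The 6 libraries held 40876788 to 44982000 counts each, so a level of 1 CPM (counts scaled to a common library total, with TMM factors) stood for 42.0 to 46.1 counts. The loci AT4G22320 and AT5G55210 were taken as the mutated BDH genes from memory of the literature, since neither the deposited files nor the reference annotation gives that name. AT4G22320 had 8, 12 and 15 counts in bdh replicates 1, 2 and 3, against 169, 143 and 148 in WT replicates 1, 2 and 3. AT5G55210 had 7, 14 and 22 counts in bdh, against 693, 575 and 755 in WT. Both loci share bases with 1 antisense gene, and the strand setting of the counting is not given in the sources used here. Over all genes, 4882 of 20791 tested genes had an adjusted p under 0.05 in edgeR (quasi-likelihood test, Benjamini-Hochberg), which is 23.5%, with 12.1% higher and 11.3% lower in bdh.

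Of the 4 ATPase genes, 1 passed that test, a share close to the 23.5% of all tested genes, and the one that passed was CHR23. CHR23 rose about 3-fold in bdh. It had 1125, 1415 and 947 counts in bdh replicates 1, 2 and 3, against 442, 312 and 458 counts in WT replicates 1, 2 and 3. The lowest bdh library was above the highest WT library, so the groups did not overlap. Groups without overlap, in either direction, were seen for 41.3% of all tested genes. The level was 27.1 ± 6.0 CPM in bdh and 8.92 ± 1.62 CPM in WT (SD, n = 3 each). The fitted fold change was 3.03, or 1.60 log2 units (SE 0.18; edgeR adjusted p = 0.000621). Every fit without 1 library and every other alternative kept CHR23 past the threshold, with log2 fold changes from 1.41 to 1.82 and adjusted p from 3.73e-15 to 0.00738. In bulk tissue, a change in how much of the tissue expresses a gene and a change in its RNA per cell cannot be told apart.

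CHR12, the close paralog of CHR23, did not pass the test. It had 1902, 2294 and 1469 counts in bdh replicates 1, 2 and 3, against 1993, 1346 and 1723 in WT replicates 1, 2 and 3. The groups overlapped, since bdh replicate 3 lay below WT replicates 1 and 3. The level was 44.0 ± 10.3 CPM in bdh and 37.3 ± 6.84 CPM in WT (SD, n = 3 each). It differed by 0.24 log2 units (SE 0.18; edgeR adjusted p = 0.350). The value was 0.05 without bdh replicate 2 and 0.40 without bdh replicate 3, with edgeR adjusted p from 0.113 to 0.833 over the fits without 1 library. With the length trend described below taken out, CHR12 was past the threshold at 0.47 log2 units (SE 0.13; edgeR adjusted p = 0.0241).

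BRM, the ATPase of the complexes that also contain SWI3C, did not pass the test. It had 3734, 4589 and 2602 counts in bdh replicates 1, 2 and 3, against 6963, 3719 and 5234 in WT replicates 1, 2 and 3. WT replicate 1 was the highest library and bdh replicate 3 the lowest, while WT replicate 2 lay within the bdh values. The level was 84.8 ± 24.5 CPM in bdh and 117.2 ± 35.1 CPM in WT (SD, n = 3 each). It differed by -0.47 log2 units (SE 0.24; edgeR adjusted p = 0.175). The value depended on single libraries, at -0.22 without WT replicate 1 and -0.69 without bdh replicate 2, with edgeR adjusted p from 0.0514 to 0.549 over the fits without 1 library.

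SYD, the ATPase that pairs with SWI3D, showed the same order of high and low libraries as BRM in each group. CHR12 also showed that order in each group, and CHR23 in bdh. SYD had 4406, 5645 and 3545 counts in bdh replicates 1, 2 and 3, against 8612, 4879 and 7535 in WT replicates 1, 2 and 3. The groups overlapped through WT replicate 2, which lay below bdh replicate 2. The level was 105.6 ± 26.5 CPM in bdh and 154.7 ± 40.8 CPM in WT (SD, n = 3 each). The log2 fold change was -0.55 (SE 0.21), and the call depended on the tool and the libraries. The adjusted p was 0.0841 in edgeR and 0.0304 in DESeq2, and in edgeR it was 0.0164 without WT replicate 2, 0.0286 without bdh replicate 2 and 0.280 without WT replicate 1.

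**Figure D1:**
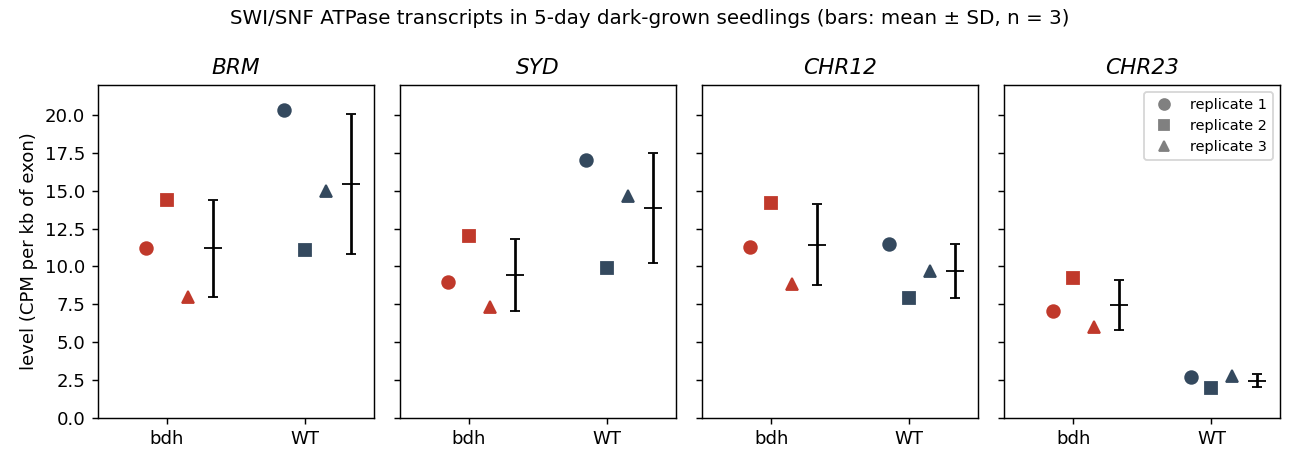
Level of each ATPase gene in CPM per kb of exon (vertical axis) in the 3 bdh and 3 WT libraries; symbols are single libraries and black bars the mean ± SD. The CHR23 values of bdh (6.02 to 9.24) lie above those of WT (1.94 to 2.73), and the groups overlap for the other 3 genes.

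In the authors' deposited table the order of the 4 genes by log2 fold change was the same. The authors' deposited table gives CHR23 1.55 log2 units (adjusted p 4.12e-15). For SYD the authors' deposited table gives -0.44 (adjusted p 0.0320), so SYD is past 0.05 there. BRM (-0.21, adjusted p 0.354) and CHR12 (0.17, adjusted p 0.390) are not past it in the authors' deposited table, in which 24.0% of the genes with an adjusted p are under 0.05. That table was made from the same libraries and is no independent evidence. DESeq2 as run here gave -0.47 for BRM, -0.56 for SYD, 0.23 for CHR12 and 1.60 for CHR23. The authors' fold changes may be on another scale, which was not tested, so their sizes may not be comparable.

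Levels can be compared between the genes once counts are divided by exonic length. On that scale (CPM per kb) the order in bdh was CHR12 at 11.4 ± 2.68, BRM at 11.2 ± 3.23, SYD at 9.45 ± 2.37 and CHR23 at 7.43 ± 1.65 (SD, n = 3 each). In WT it was BRM at 15.5 ± 4.64, SYD at 13.8 ± 3.65, CHR12 at 9.69 ± 1.78 and CHR23 at 2.45 ± 0.445 (SD, n = 3 each). In bdh the ranges of neighbouring genes in this order overlapped, but within every bdh library BRM was above SYD and SYD above CHR23. CHR12 was above BRM in bdh replicates 1 and 3 and below it in bdh replicate 2. In WT the only neighbours whose ranges did not overlap were CHR12, whose lowest library had 7.90, and CHR23, whose highest had 2.73. Within every WT library the order was BRM, SYD, CHR12 and CHR23. The level of CHR23 exceeded that of 50.3% of tested genes in bdh and of 27.4% in WT. For BRM these shares were 60.2% in bdh and 67.8% in WT.

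Ratios taken within a library do not depend on how the library was scaled. CHR23 per kb amounted to 62.5%, 65.2% and 68.1% of CHR12 in bdh replicates 1, 2 and 3. In WT replicates 1, 2 and 3 it amounted to 23.4%, 24.5% and 28.1% of CHR12. The log2 ratio of CHR23 to CHR12 averaged -0.62 ± 0.06 in bdh and -1.98 ± 0.14 in WT (SD, n = 3 each), a difference of 1.37. The exact permutation test, two-sided, gave p = 0.10, which is the smallest value that 3 against 3 libraries allow. The difference was 1.31 to 1.44 when single libraries were left out.

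CHR23 held 18.3%, 18.5% and 20.0% of the summed per-kb level of the 4 ATPase genes in bdh replicates 1, 2 and 3. Its share in WT replicates 1, 2 and 3 was 5.21%, 6.29% and 6.49%. The MINU pair together held 47.9 ± 1.2% in bdh and 29.7 ± 2.25% in WT (SD, n = 3 each). BRM held 28.1 ± 1.54% in bdh and 37.0 ± 2.11% in WT, and SYD held 23.9 ± 0.538% in bdh and 33.3 ± 1.39% in WT (SD, n = 3 each). None of these shares overlapped between the groups. The shares add up to the whole and so are not independent of each other. The summed level itself did not separate the groups, at 39.5 ± 9.89 CPM per kb in bdh and 41.4 ± 10.4 CPM per kb in WT (SD, n = 3 each; exact permutation p = 0.70). In all, 9 such ratios, shares and sums were tested. Each quantity without overlap had an exact permutation p of 0.10, adjusted to 0.129 over the 9.

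**Figure D2:**
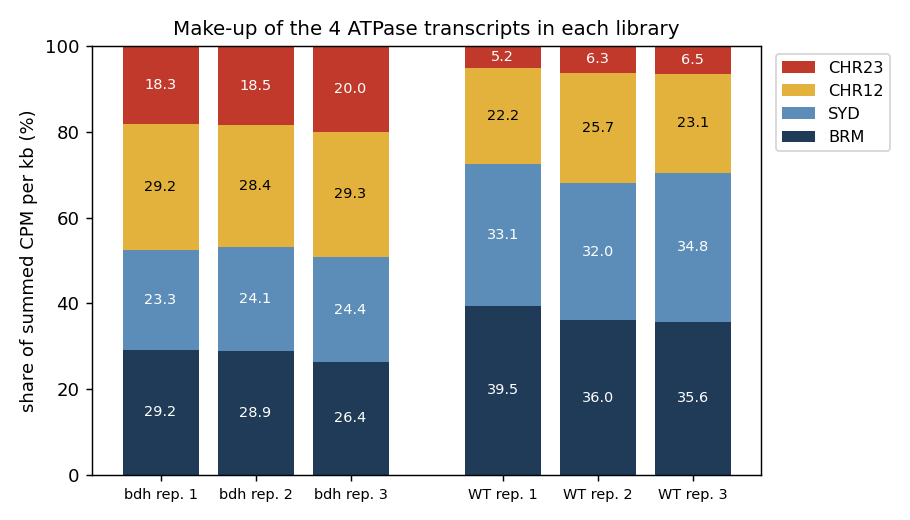
Share of each ATPase gene in the summed CPM per kb of the 4 genes (vertical axis, percent), one bar per library, bdh at left and WT at right. The CHR23 segment is 18.3% to 20.0% in bdh and 5.21% to 6.49% in WT.

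BRM and SYD did not separate the groups by their ratio to each other. The log2 ratio of SYD to BRM, per kb, was -0.32, -0.26 and -0.11 in bdh replicates 1, 2 and 3. It was -0.25, -0.17 and -0.03 in WT replicates 1, 2 and 3. These ranges overlapped, with a difference of means of -0.08 (exact permutation p = 0.40). The log2 ratio of CHR12 to BRM did not overlap between the groups and averaged 0.04 ± 0.09 in bdh and -0.65 ± 0.17 in WT (SD, n = 3 each).

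Transcript length moved with the fold changes in these libraries, and BRM and SYD are among the longest transcripts. Across 16873 genes, which are not independent replicates, the Spearman correlation of log2 fold change with exonic length was -0.40. A smooth curve of deviation against length, fitted in each library, put the expected bdh minus WT difference at -0.34 log2 units for the length of BRM and at -0.35 for that of SYD. At the lengths of CHR12 and CHR23 it was -0.24 and -0.23. By library, the curve at the length of BRM was -0.17, 0.01 and -0.34 in bdh replicates 1, 2 and 3, and 0.30, -0.01 and 0.21 in WT replicates 1, 2 and 3. BRM itself deviated from its own mean by -0.19, 0.17 and -0.68 log2 units in the same bdh libraries, and by 0.67, -0.20 and 0.23 in the WT libraries. The highest and lowest libraries were the same for the curve and for BRM. Of the 16773 genes behind the curve, 52 were at least as long as BRM and 13 as SYD, so the curve rests on few genes there.

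With the curve taken out as an offset, BRM differed by -0.13 log2 units (SE 0.16; edgeR adjusted p = 0.579) and SYD by -0.20 (SE 0.13; edgeR adjusted p = 0.292). CHR23 rose by 1.82 log2 units (SE 0.14; edgeR adjusted p = 3.36e-05). In that fit 2 of the 4 members were past the threshold, CHR12 and CHR23, both higher, where 20.0% of all tested genes were called, 10.2% higher and 9.86% lower. Taking the curve out of the levels left the CHR23 to CHR12 log2 ratio at -0.62 ± 0.06 in bdh and -1.98 ± 0.14 in WT (SD, n = 3 each), and the MINU pair at 47.0 ± 0.427% in bdh and 30.4 ± 1.63% in WT. The summed level was then 43.1 ± 6.40 CPM per kb in bdh and 36.7 ± 5.81 in WT (SD, n = 3 each, exact permutation p = 0.20). Its difference thus changed sign, and it did not separate the groups in either form. With the curve taken out, the CHR12 to BRM log2 ratio was -0.043, -0.0045 and 0.039 in bdh replicates 1, 2 and 3. CHR12 was then above BRM in bdh replicate 3 only. In WT this ratio averaged -0.60 ± 0.13 (SD, n = 3).

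**Figure D3:**
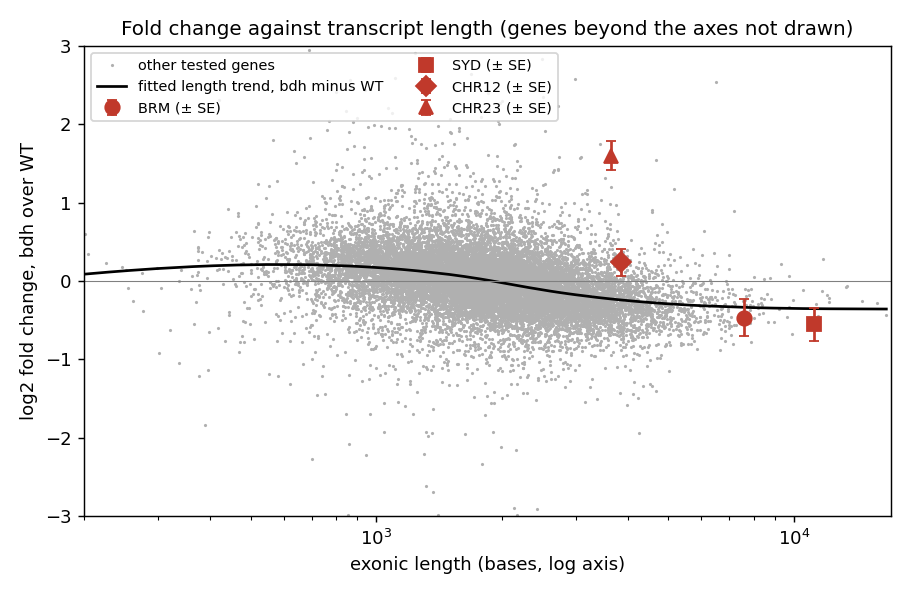
Log2 fold change of bdh over WT (vertical axis) against exonic length in bases (horizontal log axis) for tested genes above a log2 CPM of 1 (grey), with the fitted length trend as a line and the 4 ATPase genes in red with ± SE. BRM and SYD lie near the line at -0.47 and -0.55, and CHR23 lies above it at 1.60.

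**Figure D4:**
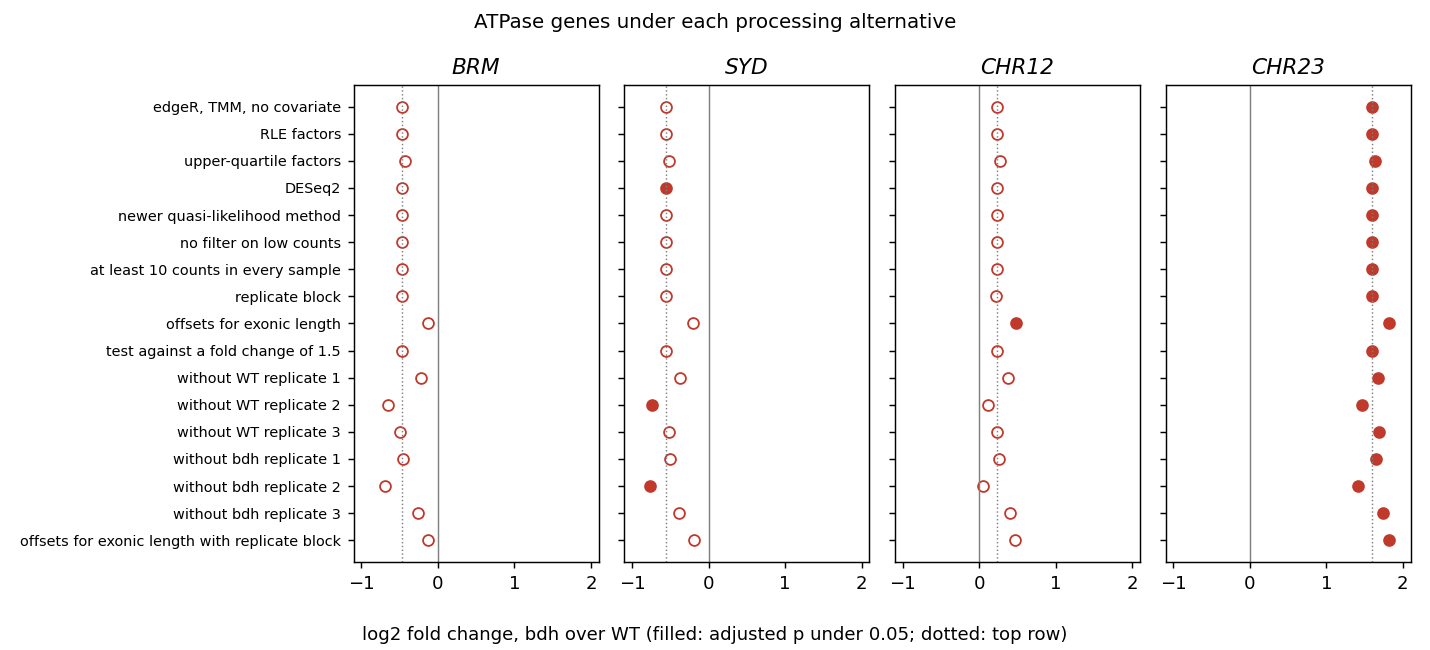
Log2 fold change of bdh over WT (horizontal axis) of each ATPase gene under each processing alternative (rows); filled points have an adjusted p under 0.05. CHR23 is filled in every row, SYD with DESeq2, without WT replicate 2 and without bdh replicate 2, CHR12 with length offsets alone, and BRM in none.

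The nearest annotated gene on each side of every member was followed in the same fit. CHR23 lies 410 bases from AT5G19300 on the same strand, which had 1.74 ± 0.442 CPM in bdh and 1.92 ± 0.277 CPM in WT (SD, n = 3 each) and did not pass the test (log2 fold change -0.15, edgeR adjusted p = 0.680). On its other side AT5G19315, a defensin-like gene, had no count in any library. UBC6, a ubiquitin-conjugating enzyme gene that overlaps the end of BRM, did not pass the test either (log2 fold change 0.03, edgeR adjusted p = 0.844). AT2G46000, on the other side of BRM, had a log2 fold change of 0.39 and did not pass the test (edgeR adjusted p = 0.0634). LOG1, a cytokinin activation gene 7743 bases from SYD, was past the threshold as higher (log2 fold change 0.43, edgeR adjusted p = 0.0271), in the opposite direction to the value of SYD. The neighbours AT2G28280, AT3G06000 and AT3G06019 were not tested for lack of counts.

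The genes whose pattern over the 6 libraries was most like that of each member were found by the root mean square difference of log2 CPM, each gene centred on its own mean, among 16915 genes. For CHR23 they were FLR1 (0.21 log2 units), XTH11 (0.21) and 2A6 (0.22), each also higher in bdh, with log2 fold changes of 1.51, 1.55 and 1.39. The median distance of a gene from CHR23 was 0.849, so these 3 are close in comparison, but as the best of many genes they carry no test. For BRM the closest were SCO1 (0.05), AT4G32420 (0.05) and AT5G55040 (0.06). AT5G55040, annotated as a bromodomain protein, is itself on the list of SWI/SNF subunits below. For SYD they were AT1G03365 (0.04), AT1G04300 (0.05) and TOP1BETA (0.05), and for CHR12 they were FBA2 (0.06), RH39 (0.06) and AT5G24490 (0.07). BRM and SYD lay 0.10 from each other. CHR12 lay 0.36 from BRM, 0.40 from SYD and 0.69 from CHR23. From CHR23, BRM lay 1.04 and SYD 1.07, so CHR12 was the member nearest to CHR23.

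The other subunits of the complexes were described from a list of 20 genes, without the mutated loci. The list, and the ATPase that each subunit is said to partner, were put together from memory of the literature and are not given by the deposited files or the reference. Of these, 6 passed the test, 30% against 23.5% of all tested genes, with 1 higher and 5 lower and a median log2 fold change of -0.05, against 0.00 for all tested genes. SWI3C, the scaffold partner of BRM, fell to 21.3 ± 3.18 CPM in bdh, against 29.4 ± 4.28 CPM in WT (SD, n = 3 each; log2 fold change -0.47, edgeR adjusted p = 0.0373). SWI3D, the scaffold partner of SYD, had a log2 fold change of -0.51 and did not pass the test (edgeR adjusted p = 0.0532). SWI3A (-0.06) and SWI3B (0.08), the scaffolds of the MINU complexes, did not pass it.

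The remaining calls were small. CHC1, an SWP73-type subunit, fell (-0.55, edgeR adjusted p = 0.0488), as did AT5G17510, annotated as mediator subunit-like (-0.51, 0.0329). AT5G07940 (-0.55, 0.0213) and AT5G07980 (-0.62, 0.0283) also fell; both are annotated as dentin sialophosphoprotein-like and were listed as SYD partners. AT1G76380, which encodes a bromodomain protein listed as a BRM partner, rose (0.46, edgeR adjusted p = 0.0474). BSH, ARP4, ARP7 and LFR had log2 fold changes from -0.08 to 0.06 and did not pass. AT5G17510, AT5G07940, AT5G07980 and AT3G08020 overlap other genes in the reference, so reads there may be shared. With length offsets 4 of the 20 passed, 2 higher and 2 lower. AT1G76380 and AT3G08020, a PHD finger gene, were higher, and CHC1 and AT5G17510 lower. The excess of lower calls was thus not seen there. The median log2 fold change of the list was still -0.05 there, against -0.007 for all tested genes. The count moved with single libraries. In edgeR it was 0 without bdh replicate 1, with 8 at an unadjusted p under 0.05, where 6074 of 21048 genes over all were. In DESeq2 with all libraries 8 passed, where 5768 of 20791 genes over all did. The edgeR count of subunits was 1 without bdh replicate 3 or WT replicate 1, and 3 without WT replicate 3. It was 6 without bdh replicate 2 and 7 without WT replicate 2. Calls over all genes moved too. They were 1811 of 21048 without bdh replicate 1, 3373 of 21071 without bdh replicate 3 and 2373 of 21096 without WT replicate 1. They were 2682 of 21047 without WT replicate 3, 4899 of 21070 without bdh replicate 2 and 5558 of 21088 without WT replicate 2.

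**Figure D5:**
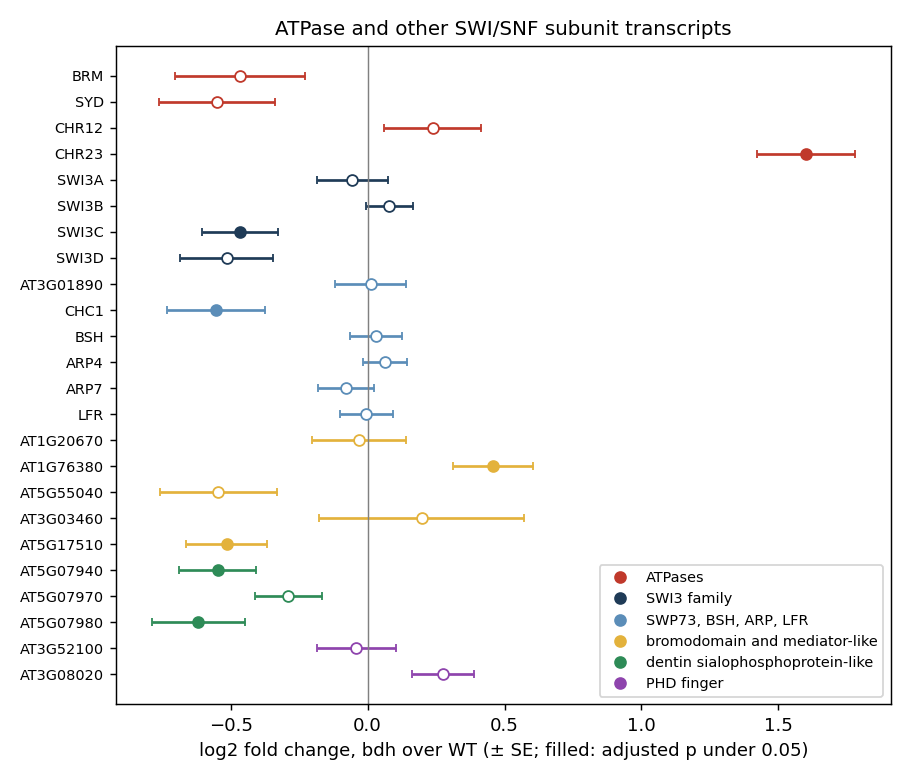
Log2 fold change of bdh over WT with ± SE (horizontal axis) for the 4 ATPase genes and 20 other SWI/SNF subunit genes (rows), filled where the adjusted p is under 0.05. CHR23 at 1.60 has the largest value on the plot, and the other filled points lie between -0.62 and 0.46.

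Related ATPases outside the SWI/SNF class gave a second comparison. Of 24 other Snf2-type remodeller genes 23 were tested and 8 passed, 34.8% against 23.5% of all tested genes, 1 higher and 7 lower. CHR24, annotated as a chromatin remodeller, was the one that rose, to 30.7 ± 6.59 CPM in bdh, against 15.7 ± 1.93 CPM in WT (SD, n = 3 each; log2 fold change 0.97, edgeR adjusted p = 0.00354). CHR10 fell (-1.04, edgeR adjusted p = 0.0011), and so did CHR4, a relative of PICKLE (-0.78, 0.0241). The median of the list was -0.37, and -0.11 with length offsets, where 4 passed. The count was 13 without WT replicate 2 and 11 without bdh replicate 2. It was 4 without WT replicate 1 or bdh replicate 3, and 3 without WT replicate 3 or bdh replicate 1. In the same fits calls over all genes ranged from 1811 of 21048 without bdh replicate 1 to 5558 of 21088 without WT replicate 2. The value of CHR23, 1.60, was above that of every tested gene of this list, and the differences between genes were not tested.

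Genes reported in the literature as bound or regulated by BRM or SYD, 24 in all from memory, were followed in the same fit. Of these 19 were tested and 5 passed, all lower, which is 26.3% against 23.5% of all tested genes. Without bdh replicate 1, 2 of the list passed, and over all genes 1811 of 21048 passed. SVP, a MADS-box repressor of flowering, fell to 2.73 ± 0.181 CPM in bdh, against 13.8 ± 1.18 CPM in WT (SD, n = 3 each; log2 fold change -2.34, edgeR adjusted p = 3.5e-05). The auxin efflux carrier genes PIN4 (-0.54, edgeR adjusted p = 0.00443) and PIN7 (-0.44, 0.00755) fell, as did PIN3 (-0.40, 0.0251) and PIN2 (-0.41, 0.0163), both named after their values were seen. With length offsets 3 of the 19 passed, SVP and PIN4 lower and SNC1 higher, and PIN7 did not (edgeR adjusted p = 0.145). ABI5, a regulator of abscisic acid responses, had 19.7 ± 2.97 CPM in bdh and 19.4 ± 5.93 CPM in WT (SD, n = 3 each) and did not pass the test. The floral gene AG had no count in any bdh library and 0, 2 and 0 counts in WT replicates 1, 2 and 3. AG, CUC3, WUS, AP3 and PDF1.2 had too few counts to be tested.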

How the data were processed

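Polyadenylated RNA was sequenced from strand-specific libraries, per the labels' protocols. STAR 2.7.10b, featureCounts (Subread 2.0.3), DESeq2 1.38 and genome TAIR10 are named in the submitters' processing notes; counting settings and annotation are not given in the sources used here. The count table deposited by the authors holds whole numbers for each library, not normalized and not pooled. A second deposited table, per the file headers, gives for each gene a mean signal (normalized counts), a log2 fold change and its error, and a raw and an adjusted p-value.

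The main test used edgeR 4.0.16 under R 4.3.3 (filterByExpr by group, TMM factors, glmQLFit and glmQLFTest, no covariate, Benjamini-Hochberg adjustment over all tested genes, threshold 0.05). Standard errors are approximate, taken from the fold change and its F statistic. CPM are TMM-scaled, and per-kb levels use the union of exons in TAIR10.1, which gave a length for 20692 tested genes. All 74 listed loci were found there; names it does not give were replaced by locus names. Sequences were compared with mafft 7.526 and blastn 2.17.0. Each library's length curve was a natural spline (4 degrees of freedom).

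Alternatives were DESeq2 1.42.0, RLE or upper-quartile factors, edgeR's newer quasi-likelihood fit, an absent or stricter low-count filter (10 in each library), length offsets, a replicate block, a test against a fold change of 1.5 and each library left out. Length offsets with the block, and ratios with the length curve taken out, were added after seeing the data. The test was tested on simulated counts.

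Members and lists were chosen with earlier results of these data known. Named were the members, the mutated loci, every called subunit, at most 3 called genes of each other list by size, the members' neighbours and the 3 genes most like each member; AT3G08020, SNC1, PIN2, PIN3, SWI3A, SWI3B, SWI3D, BSH, ARP4, ARP7, LFR, ABI5, AG, CUC3, WUS, AP3 and PDF1.2 were named after their values were seen. Even numbers made up 74.5% of counts from 1 to 10, so counts need not be independent molecules. Replicates all differed beyond sampling noise (chi-square per degree of freedom 15.2 or more).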

Additional observations from a re-analysis of the deposited data

How the results depend on the processing

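CHR23 kept its direction and its call in all 16 alternatives, and BRM, SYD and CHR12 kept their directions. Of the 4 members, 2 passed with DESeq2, where 5768 of 20791 genes over all passed. With length offsets 2 members passed, where 4144 of 20692 genes over all did, and 1 to 2 members passed without single libraries. Over all genes 2090 passed with the replicate block, 2096 with block and length offsets, 431 against a fold change of 1.5, and 1811 (without bdh replicate 1) to 5558 (without WT replicate 2) without single libraries; the count was 2373 without WT replicate 1 and 2682 without WT replicate 3. Of the other subunits, 0 passed with the block in edgeR, with 8 at an unadjusted p under 0.05 (6408 of 20791 over all genes). Without the block, 8 passed in DESeq2. In edgeR 1 passed with block and offsets, and 0 to 7 without single libraries. Against a fold change of 1.5, 0 passed, with 0 at an unadjusted p under 0.05 (1566 of 20791 over all genes). For Snf2-type remodellers the counts were 3 with the block, 4 with offsets, 2 with both, 1 against a fold change of 1.5, and 3 to 13 without single libraries. For reported targets they were 2, 3, 1 and 1, and 2 to 6. The cause of these moves was not tested.

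The CHR23 share differed by 12.9 percentage points, by 7.57 when counts were not divided by length, and by 12.4 to 13.3 without single libraries; the log2 ratio to CHR12 differed by 1.31 to 1.44. Same-numbered libraries did not deviate together: r across genes was 0.0426, -0.538 and -0.29, and 1 of 6 libraries was closest to its own number. No pairing by number was seen, but the labels do not say whether same-numbered libraries share a sowing. With the block CHR23 had an edgeR adjusted p of 0.00738, and a sign-flip permutation over same-numbered libraries gave p = 0.25 for both the ratio and the share, the smallest value it allows. In the edgeR fit with all libraries, BRM, SYD and CHR12 did not pass after adjustment over all tested genes. Before adjustment 2 of the 4 members, CHR23 and SYD, had an edgeR p under 0.05, where 8044 of all 20791 tested genes did.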
